A study of Homo sapiens with 20 samples.

Results

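10 genes that mark epithelial or mesenchymal cell identity were followed in the control and POLR1D-silenced cells of a pair of colorectal cancer lines. The epithelial genes were CDH1, EPCAM, CLDN4, KRT8, KRT18 and KRT19, and the mesenchymal genes were VIM, ZEB1, SNAI2 and L1CAM. They were chosen by name with earlier results of these data known, so their p-values are not those of genes picked blind. All 10 were found, each on a single line of the table, among 36346 gene names (40117 lines before those sharing a name were summed).

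Epithelial cells hold each other through adherens junctions, in which the cadherin E-cadherin binds its like on the next cell, and through tight junctions, which seal the space between cells, and they carry a cytoskeleton of keratin filaments. In epithelial-mesenchymal transition, transcription factors of the ZEB and SNAI families repress E-cadherin and other epithelial genes, and vimentin filaments become abundant. In colorectal tumours this shift is known from cells at the invasive edge, where L1CAM, an adhesion molecule of the nervous system, can also be made.

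The study silenced POLR1D, which encodes a subunit shared by RNA polymerases I and III, and sequenced RNA from HT29 and SW480, lines grown from colorectal adenocarcinomas. Cells were collected 72 h after transfection with a negative control siRNA (SCR) or with siPOLR1D2 or siPOLR1D3, different siRNAs against the same gene. HT29 has 4 SCR, 2 siPOLR1D2 and 2 siPOLR1D3 libraries, and SW480 has 6 SCR, 3 siPOLR1D2 and 3 siPOLR1D3 libraries, a library being the sequenced RNA of 1 sample. HT29 was grown in DMEM and SW480 in RPMI, so line and medium cannot be told apart.

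The value of a gene is its read count as normalised by the authors, and the values of 1 library sum to between 17619830 and 22958216. For levels, the values of all 20 libraries were brought to a common scale with 1 factor a library, from 0.872 to 0.888 in HT29 and from 1.092 to 1.132 in SW480, and every level below is on that scale unless said otherwise. Differences are given as log2 of the value plus 1, on which each unit is a doubling and on which changes of genes with low values look smaller than they are. A gene is called different when its p-value from limma, a linear model fitted to all genes tested, is under 0.05 after adjustment over all of them. The libraries are repeats of single lines and nothing says that they come from separate cultures, so p-values measure the spread between these samples, which may be technical.

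Some libraries stood apart before any group was compared. Along the main axis of variation in HT29 (the first principal component, 43.3% of the variance), SCR 1 lay at 88.3 and the other libraries between -21.1 and 18.7. Along that of SW480 (42.0%), SCR 2, SCR 3 and siPOLR1D2 1 and 2 lay between 52.7 and 71.5, SCR 1 at 14.1 and the other 7 libraries between -53.7 and -21.8. For most members the differences between the lines, and some silencing results, are also given without these libraries or on each side of the division.

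The silenced gene itself was lower in every silenced library. In HT29, POLR1D was at 6922, 5361, 4994 and 5722 in SCR 1 to 4, at 3847 and 3986 with siPOLR1D2, and at 3245 and 2914 with siPOLR1D3. The 4 silenced libraries lay below the 4 SCR libraries, a log2 difference of -0.72 (SE 0.139) with an adjusted p of 0.355 and an exact permutation p of 0.0286, the smallest that 4 against 4 can give; without SCR 1, the highest library, it was -0.63 (adjusted p = 0.273). The paper, with another test (DESeq2), lists POLR1D as changed by silencing in both lines. In SW480, POLR1D ranged over the SCR libraries from 1668 through a median of 1814 to 2355, and over the silenced libraries from 773 through 881 to 1189.7. The groups did not overlap, and POLR1D fell by 1.04 on the log2 scale (SE 0.126, fold 2.05, adjusted p = 0.000991). The call was lost in 2 of 29 other settings, given with the processing, in which the log2 differences were -1.06 and -1.17.

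Control cells of the lines differed most in CDH1 among the epithelial genes and in VIM, SNAI2 and L1CAM among the mesenchymal ones. SW480 had 19.4 times less CDH1 and 464 times more VIM than HT29 by the ratio of means. Of the 6 epithelial genes, 3 were called lower in SW480 (CDH1, CLDN4 and KRT8), where 24.5% of the 15064 genes tested were, and none was called higher. All 4 mesenchymal genes were called higher, where 30.8% of all genes were, and 55.3% were called in either direction. SNAI2 and L1CAM passed the filter on low values only through SW480, where they are high, so the count of the 4 is a description.

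CDH1 encodes E-cadherin and lies at chr16:68737225-68835548 on the plus strand (GENCODE 29, build GRCh38, as for the other positions). It was at 34567, 20975, 16885 and 16635 in HT29 SCR 1 to 4, and in the 6 SW480 SCR libraries it ranged from 572 through a median of 1116 to 1918. HT29 SCR 1 was the highest library, and every SW480 library lay below every HT29 library. The means were 22266 ± 8439 (SD, n = 4) and 1148 ± 455 (n = 6), a log2 difference of -4.30 (SE 0.303, adjusted p = 2.4e-07, exact permutation p = 0.00952, the smallest that 6 against 4 can give). Without HT29 SCR 1 the difference was -4.07 (adjusted p = 8.3e-07), with SW480 SCR 1 to 3 alone -4.57 and with SCR 4 to 6 alone -4.04.

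CLDN4 encodes claudin-4, a tight junction strand protein, at chr7:73799542-73832693 on the plus strand. Its level was 493, 341, 339 and 343 in HT29 SCR 1 to 4, and ran from 90.9 through 124 to 209 in SW480 SCR. HT29 SCR 1 again stood highest, and within SW480 the libraries SCR 1 to 3 (152 to 209) lay above SCR 4 to 6 (90.9 to 95.7). The lines did not overlap, with a log2 difference of -1.54 (SE 0.264, adjusted p = 0.000346, exact permutation p = 0.00952). With SW480 SCR 1 to 3 alone it was -1.10, with SCR 4 to 6 alone -1.99, and without HT29 SCR 1 it was -1.41.

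EPCAM, an adhesion molecule over the surface of most epithelia, lies at chr2:47345158-47387601 on the plus strand. It was at 32948, 25492, 28065 and 29373 in HT29 SCR 1 to 4, and ran from 15158 through 20796 to 32464 in SW480 SCR. Of the SW480 libraries, 5 lay below all of HT29, and SCR 1 lay among the HT29 values. The log2 difference of -0.49 (SE 0.198) was not called (adjusted p = 0.0543, exact permutation p = 0.0476). EPCAM differed by -0.42 without HT29 SCR 1 (adjusted p = 0.115) and by -0.54 with SW480 SCR 1 to 3 alone. With SCR 4 to 6 alone it differed by -0.43 and was called (adjusted p = 0.0228). Without SW480 SCR 1 it was -0.62 and called (adjusted p = 0.00557), and without the common scale it was -0.15 (adjusted p = 0.537), the ends of the range over all settings tried.

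Keratins 8 and 18 pair into the filaments of simple epithelia, and keratin 19 is made alongside them in the gut. KRT8 was at 90418, 116485, 111061 and 114572 in HT29 SCR 1 to 4, and ran from 38981 through 58609 to 87017 in SW480 SCR. The highest SW480 library, SCR 1, still lay below the lowest HT29 library, SCR 1 of that line. KRT8 differed by -0.94 on the log2 scale (SE 0.214, adjusted p = 0.00271, exact permutation p = 0.00952), a mean 1.86 times lower in SW480. With SW480 SCR 1 to 3 alone it was -1.02, with SCR 4 to 6 alone -0.85 and without HT29 SCR 1 it was -1.02.

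KRT18, its partner, overlapped between the lines. Its level was 90034, 106843, 94802 and 81279 in HT29 SCR 1 to 4, and ran from 59648 through 79434 to 109788 in SW480 SCR. SW480 SCR 1 exceeded every HT29 library, while 3 SW480 libraries lay below all of them. The log2 difference of -0.24 (SE 0.181, adjusted p = 0.294) was not called, and its sign turned without the common scale (0.11) and under quantile normalisation (0.20). KRT18 differed by -0.27 with SW480 SCR 1 to 3 alone, by -0.20 with SCR 4 to 6 alone and by -0.25 without HT29 SCR 1. The genes lie next to each other, KRT8 at chr12:52897187-52949954 on the minus strand and KRT18 at chr12:52948871-52952901 on the plus strand, and these spans overlap; the strand on which reads were counted is not given.

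KRT19, at chr17:41523617-41528308 on the minus strand, was at 7537, 7266, 8708 and 8140.4 in HT29 SCR 1 to 4, and ran from 5347 through 5510.3 to 9176 in SW480 SCR. SW480 SCR 1 was above every HT29 library and the other 5 were below all of them. The log2 difference was -0.37 (SE 0.158, adjusted p = 0.0650, exact permutation p = 0.0667). Without SW480 SCR 1 it was -0.49 and called, with an adjusted p of 0.00248, the lowest over the settings tried. With SCR 4 to 6 alone it was -0.53 and called (adjusted p = 0.00278), and with SCR 1 to 3 alone it was -0.20. Without the common scale it was -0.03 with the highest adjusted p, 0.890. Keratins have many processed copies in the genome, and rows named as pseudogenes of KRT8 summed to 0.308% and 0.529% of KRT8 in HT29 and SW480 controls, those of KRT18 to 0.186% and 0.210% and those of KRT19 to 0.0136% and 0.0107%, so how reads were shared among the copies is uncertain.

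Without the common scale, the median log2 difference of all genes between the lines was 0.416 in place of 0.069, and 6551 genes were called higher and 2320 lower in SW480 in place of 4645 and 3690. CDH1, CLDN4 and KRT8 were called lower in SW480 on either scale (log2 differences of -3.96, -1.21 and -0.60 without it).

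VIM encodes vimentin, the filament protein of mesenchymal cells, at chr10:17228259-17237593 on the plus strand. In HT29 SCR 1 to 4 it was at 87.5, 80.6, 16.6 and 24.0, and in SW480 SCR it ran from 14196 through 16148 to 46609. SW480 SCR 2 and 3 stood far above the other 4 SW480 libraries, and HT29 SCR 1 and 2 above the other HT29 libraries, yet the lines were far apart. The means were 52.2 ± 37.1 (SD, n = 4) and 24193 ± 14118 (n = 6), a log2 difference of 8.98 (SE 0.506, adjusted p = 4.0e-08, exact permutation p = 0.00952). VIM differed by 9.47 with SW480 SCR 1 to 3 alone, by 8.50 with SCR 4 to 6 alone and by 9.34 without HT29 SCR 1.

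ZEB1, a zinc finger repressor of CDH1, lies at chr10:31318495-31529814 on the plus strand. It was at 89.5, 106, 78.0 and 39.0 in HT29 SCR 1 to 4, and ran from 1049 through 1684 to 2894 in SW480 SCR. The lines did not overlap, and SW480 SCR 2 and 3 were again the highest libraries. Its mean was 23.9 times higher in SW480, with a log2 difference of 4.56 (SE 0.327, adjusted p = 2.9e-07, exact permutation p = 0.00952). It was 4.74 with SW480 SCR 1 to 3 alone, 4.37 with SCR 4 to 6 alone and 4.65 without HT29 SCR 1.

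SNAI2 encodes the repressor Slug. It was listed at 0 in all 4 HT29 SCR libraries and ran from 109 through 149.99 to 257 in SW480 SCR. Every SW480 library lay above HT29, with SCR 6 the highest, and no fold can be given against a group listed at 0. L1CAM, at chrX:153861514-153886174 on the minus strand, was at 7.75, 0.47, 2.50 and 2.61 in HT29 SCR 1 to 4, and ran from 895 through 1324 to 1938 in SW480 SCR. All HT29 libraries lay under 10, the limit used for calling a gene measured, and all SW480 libraries lay above them. The log2 difference was 8.53 (SE 0.401). No p-value is given for these genes, since passing the filter through SW480 alone fixed that they differ. In bulk RNA, fewer cells with a transcript and less of it in each cell cannot be told apart.

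**Figure D1:**
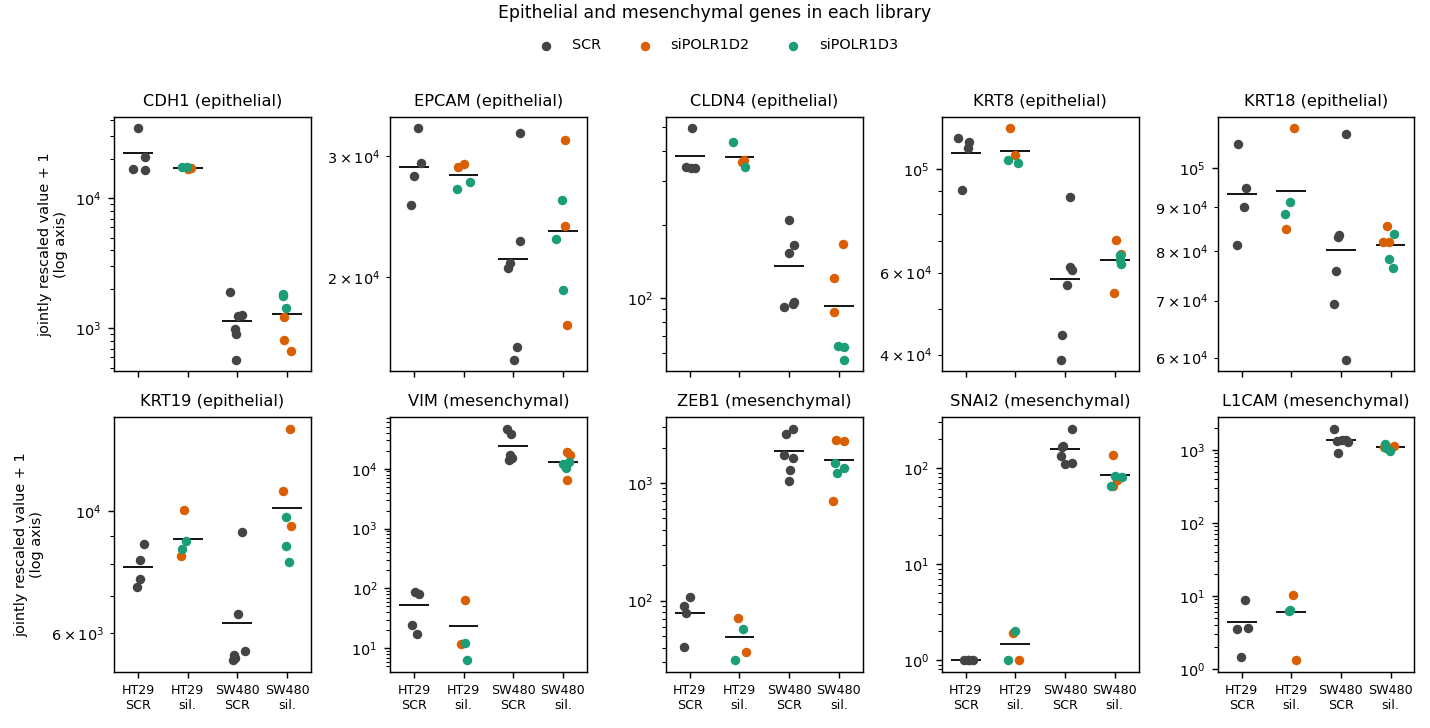
Value of each gene plus 1 in each of the 20 libraries on the common scale (log axes), with 1 dot a library, coloured by siRNA, and a line at the mean of each group. VIM, ZEB1, SNAI2 and L1CAM sit apart between the lines, CDH1, CLDN4 and KRT8 sit lower in SW480 controls, and EPCAM, KRT18 and KRT19 overlap.

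**Figure D2:**
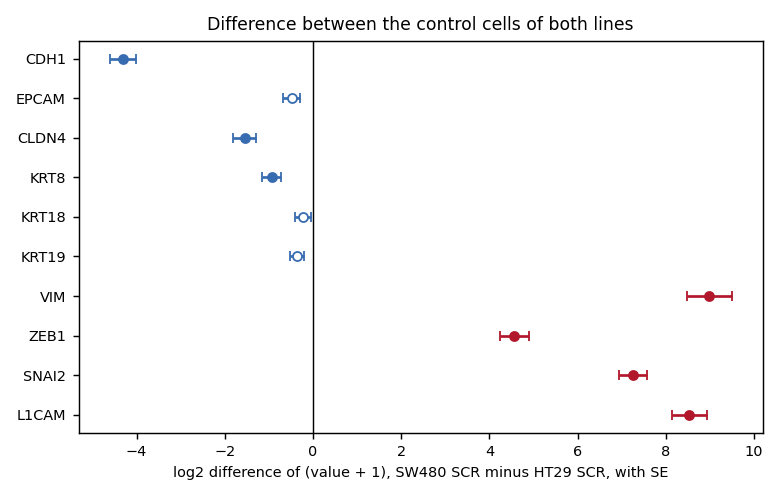
Log2 difference of the value plus 1 between SW480 and HT29 control cells with its SE, blue for epithelial and red for mesenchymal genes, filled where the adjusted p is under 0.05. CDH1 is the lowest at -4.30 and VIM the highest at 8.98, and the value of SNAI2 depends on the pseudocount since HT29 is listed at 0. SNAI2 and L1CAM passed the filter through SW480 alone, so their fill is a description.

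ZEB1, VIM and CLDN4 were called different between the lines. L1CAM, which passed the filter through SW480 alone, is added as a description. Each of them has a promoter window that holds a motif searched, so the sequences around their starts are shown. RefSeq promoter windows (build GRCh38.p14), of 250 bases before to 50 bases after a start, were at hand for 5 of the 10 genes. They had 12 entries in all. The set of windows used held no entry for CDH1, EPCAM, KRT18, KRT19 and SNAI2. Capitals mark CACCTG or CAGGTG, the letters that ZEB and SNAI proteins are known to bind, and GGGCGG or CCGCCC, the box known for SP1, each searched on both strands. The first pair stood in 20.6% of 35116 promoter windows and the second in 45.0%. Where a gene has several entries, the one with the most matches is shown. The windows shown are ZEB1 at chr10:31318966-31319265, VIM at chr10:17227991-17228290 and CLDN4 at chr7:73830746-73831045, all on the plus strand, and L1CAM at chrX:153875895-153876194 on the minus strand, each written 5′ to 3′ along the gene.
ZEB1: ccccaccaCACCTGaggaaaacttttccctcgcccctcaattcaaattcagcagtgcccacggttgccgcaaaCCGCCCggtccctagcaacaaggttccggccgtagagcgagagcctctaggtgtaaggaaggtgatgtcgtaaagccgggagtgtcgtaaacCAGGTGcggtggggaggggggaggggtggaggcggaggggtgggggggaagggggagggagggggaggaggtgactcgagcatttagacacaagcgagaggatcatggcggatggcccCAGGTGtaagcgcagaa
VIM: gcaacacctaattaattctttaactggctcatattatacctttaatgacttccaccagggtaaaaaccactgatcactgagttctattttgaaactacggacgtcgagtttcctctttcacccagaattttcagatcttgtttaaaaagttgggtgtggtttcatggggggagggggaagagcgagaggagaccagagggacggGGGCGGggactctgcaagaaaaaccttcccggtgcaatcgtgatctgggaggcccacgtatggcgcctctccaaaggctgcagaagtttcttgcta
CLDN4: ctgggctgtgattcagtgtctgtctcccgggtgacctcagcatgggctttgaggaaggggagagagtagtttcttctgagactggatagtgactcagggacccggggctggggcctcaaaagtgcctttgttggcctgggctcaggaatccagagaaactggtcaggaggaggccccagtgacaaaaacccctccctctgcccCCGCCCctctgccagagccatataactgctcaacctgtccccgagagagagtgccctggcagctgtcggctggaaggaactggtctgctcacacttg
L1CAM: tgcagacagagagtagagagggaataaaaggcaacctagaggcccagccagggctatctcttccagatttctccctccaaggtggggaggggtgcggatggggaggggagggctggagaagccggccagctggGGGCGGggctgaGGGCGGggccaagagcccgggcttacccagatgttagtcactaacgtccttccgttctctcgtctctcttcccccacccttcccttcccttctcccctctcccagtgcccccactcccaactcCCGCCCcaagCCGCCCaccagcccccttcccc
Among the 12 entries, CACCTG or CAGGTG stood in 2, both of ZEB1. In the one shown it begins at -242, -85 and 33 bases from the start, and in the other, chr10:31318167-31318466, at -57. The box GGGCGG or CCGCCC stood in 9 of the 12, once in VIM at -46 and once in CLDN4 at -47, 4 times in the L1CAM window, and not in that of KRT8. The motifs do not overlap each other in the 4 windows shown, and a match is a description of letters, not a site.

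Levels of different genes were compared per kilobase of transcript, using the median length of each gene's basic protein-coding transcripts in GENCODE 29. These lengths may not match the authors' index, which is not given. The libraries were captured, and how evenly the capture took up different genes is not known. In HT29 controls KRT18 (59692 ± 6824 per kilobase, SD, n = 4) and KRT8 (57457 ± 6388) led and overlapped, followed by EPCAM at 17805 ± 1908, then CDH1 (6739 ± 2554) and KRT19 (5693 ± 463), which overlapped. CLDN4 followed at 92.2 ± 18.5, then VIM (27.9 ± 19.8) and ZEB1 (14.4 ± 5.28), which overlapped, L1CAM at 0.690 ± 0.643 and SNAI2 at 0. In SW480 controls KRT18 (51365 ± 10915, n = 6) and KRT8 (30886 ± 8966) again led and overlapped. EPCAM (13072 ± 3834) and VIM (12951 ± 7558) came next with overlapping libraries, then KRT19 at 4488 ± 1081. CDH1 (347 ± 138), ZEB1 (345 ± 135) and L1CAM (280.1 ± 69.2) formed an overlapping run above SNAI2 (71.3 ± 24.6) and CLDN4 (32.7 ± 11.8), which also overlapped. By means, both lines thus held keratin 8 and 18 transcripts above all the other members, and in SW480 vimentin transcripts stood beside those of EPCAM, the highest VIM library (24951, SCR 3) lying above the lowest KRT8 library (20712, also SCR 3).

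Further genes around the members were taken from fixed lists, also chosen with earlier results of these data known. They were compared between the control cells, where 30.8% of all genes tested were called higher in SW480 and 24.5% lower. Each count below is to be read against these shares. Of 16 tight junction genes, the set to which CLDN4 belongs, 11 were called lower in SW480 and 2 higher, with a median log2 difference of -0.99 beside 0.069 for all genes. TJP3 went from a mean of 1009 in HT29 to 42.6 in SW480 and CLDN2 from 310.1 to 2.25, while CLDN1 went from 385 to 1142 and CLDN15 from 66.1 to 119.95. Of 15 genes of adherens junctions and desmosomes, around CDH1, 6 were higher and 6 lower (median 0.007). The cadherins CDH17 (11.8 to 400, log2 5.39) and CDH3 (24.8 to 398, log2 3.83) were higher in SW480, and NECTIN2 (log2 -2.44) and NECTIN4 (log2 -1.84) lower.

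Of the other keratins, 9 of 10 were tested, with 4 higher in SW480, 3 lower and a median of 0.478. KRT5, a keratin of basal cells, had means of 157 in HT29 and 53417 in SW480 (log2 9.93, SE 1.26), and KRT6A of 3.36 and 1374. KRT20, a marker of differentiated gut cells, had means of 2475 and 4.69, and KRT13 of 1603 and 41.3. All 16 other epithelial surface genes were called lower in SW480 (median -3.06), RAB25 with a log2 difference of -8.45 and PROM1 of -7.31, means of 3.01 and 6.34 being left in SW480. Among epithelial transcription and splicing factors, 15 of 16 were tested, with 9 lower and 5 higher (median -0.91). GRHL2 (5182 to 17.1) and FOXA1 (2802 to 58.7) were lower in SW480, and CDX2 (0.213 to 78.4) and FOXA2 (1.94 to 129) higher.

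On the mesenchymal side, 6 of 12 other transcription factors of the transition passed the filter, with 4 higher in SW480 and 1 lower (median 2.36). PRRX1 (0.330 to 43.2) was higher, and TCF4 (27.4 to 11.4) lower. Of the mesenchymal cytoskeleton, adhesion and matrix genes, the list nearest to VIM, 23 of 27 were tested, with 16 higher and 4 lower (median 4.74). ITGA5 (1.88 to 831) and CDH11 (0.76 to 1082) were the most raised in SW480, and TPM2 (810.1 to 202) and S100A4 (12474 to 4429) were lower. Of the L1 family and its partners, 8 of 9 were tested, with 5 higher and 1 lower (median 1.40), CNTN1 (3.69 to 986) and NRP2 (6.97 to 1560.2) being higher and ITGAV (5567 to 3256) lower. Of TGF-beta signalling genes, 15 of 16 were tested, with 5 higher and 6 lower (median 0.104), LTBP1 (log2 5.31) and ID2 (2.25) being higher and SMAD4 (-2.25) and SMAD3 (-1.84) lower. Genes near 0 in HT29, such as ITGA5 and CDH11, passed the filter through SW480, and genes near 0 in SW480, such as CLDN2, KRT20, RAB25 and PROM1, passed it through HT29. The filter thus partly fixes the counts and medians of all these lists in both directions, and such log2 differences depend on the pseudocount.

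**Figure D3:**
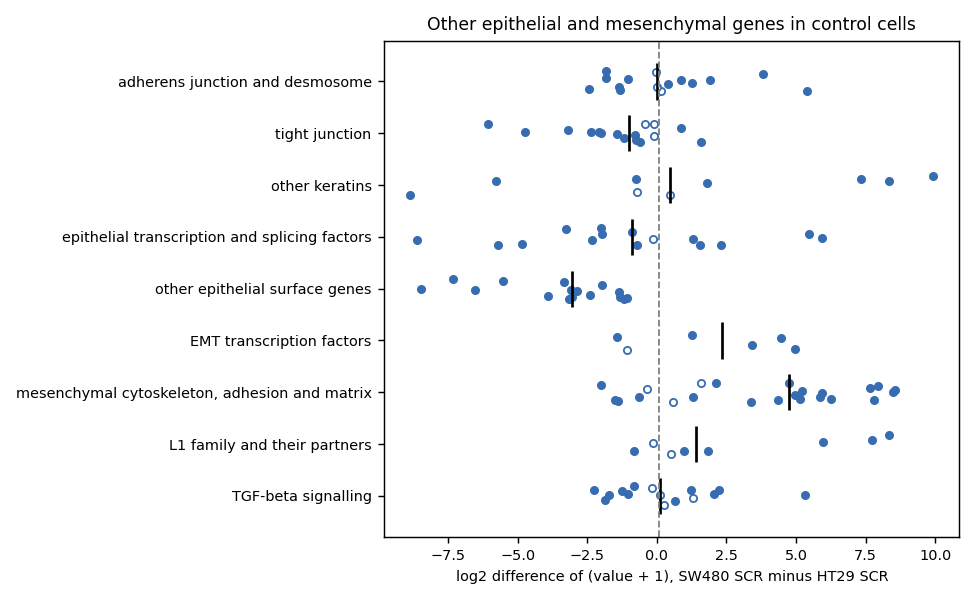
Log2 difference of the value plus 1 between SW480 and HT29 control cells for the genes of 9 lists, 1 dot a gene, filled where the adjusted p is under 0.05, with a bar at each list's median and a dashed line at the median of all genes. All 16 other epithelial surface genes lie below 0, and the median of the mesenchymal list is 4.74.

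Markers of cell types were read in the same control libraries. Of 9 colon epithelium markers, 6 had a mean of at least 10 in HT29 (summed level 7719, most abundant LGALS4 at 3814). CDX1, CDX2 and GPA33 were under 10, with CDX2 at 0.213. In the silenced HT29 libraries the mean of CDX2 was 6.79. The paper states that the genes it silenced, CDX2 among them, are expressed in both lines, and it lists its CDX2 siRNAs as successful in HT29. Why CDX2 was near 0 in these HT29 libraries was not tested. The authors had their lines typed by short tandem repeats, and identity was not tested here. In SW480 6 of 9 markers had a mean of at least 10 as well (summed level 5259.9, most abundant VIL1 at 3587), with CDX1, KRT20 and LGALS4 under 10. Of 9 fibroblast markers, 1 reached 10 in HT29 (summed level 26.7, led by COL1A1 at 20.9) and 3 in SW480 (671, led by COL1A1 at 285), where PDGFRB (log2 6.30) and LUM (log2 6.44) were higher, while DCN, FAP, PDGFRA and THY1 were under 10 in both lines. Of 8 leukocyte markers, 4 reached 10 in HT29 (31907, led by LYZ at 31776) and 2 in SW480 (181, led by CD68 at 97.5), with PTPRC, CD3E and MS4A1 under 10 in both. LYZ is also made by gut epithelium; it was lower in SW480 (log2 -9.08), as was CD14 (-2.75). Of 6 endothelial markers, 1 reached 10 in HT29 (26.7, led by TEK at 14.5) and 2 in SW480 (91.7, led by VWF at 52.2, log2 4.22), with PECAM1, CDH5 and KDR under 10. PDGFRB, LUM and VWF, near 0 in HT29, passed the filter only through SW480, so their differences are descriptions. So is that of CD14, which passed it only through HT29 (mean 3.30 in SW480). The part of any other cell type in the levels of VIM, ZEB1, SNAI2 and L1CAM was not tested.

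Silencing of POLR1D was then compared with SCR within each line, on the values as deposited. In HT29, 8 of the 10 members passed the filter, and none was called by limma, where 0% of 13274 genes were (0 genes; 1422 at an unadjusted p under 0.05, and the lowest adjusted p was 0.316). The paper, with DESeq2, lists genes changed by silencing in both lines, so this count of 0 holds for limma on the values as deposited. None of the 8 members had an unadjusted p under 0.05 either, the lowest adjusted p among them being 0.518 for VIM. EPCAM, CLDN4, KRT8 and KRT18 had log2 differences between -0.03 and 0.02, beside a median of 0 for all genes.

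CDH1 in HT29 was at 17209 and 16786 with siPOLR1D2 and at 17439 and 17450 with siPOLR1D3. These 4 values lie inside the range of the SCR libraries, 2 of which, SCR 1 and SCR 2, were higher. The log2 difference was -0.30 (SE 0.210, adjusted p = 0.589, exact permutation p = 0.4), and without SCR 1 it was -0.07 (adjusted p = 0.841). KRT19 was at 10046 and 8274 with siPOLR1D2 and at 8521 and 8822 with siPOLR1D3. On the common scale 2 of these libraries lay above every SCR library, and on the values as deposited 1 did. KRT19 had a log2 difference of 0.17 (SE 0.108, adjusted p = 0.557, exact permutation p = 0.143).

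VIM in HT29 was at 10.7 and 63.9 with siPOLR1D2 and at 5.36 and 11.2 with siPOLR1D3. Of the silenced libraries 3 lay below every SCR library and siPOLR1D2 2 lay within their range. The log2 difference was -1.43 (SE 0.764, adjusted p = 0.518, exact permutation p = 0.143), and it was -2.10 without siPOLR1D2 2 and -1.07 without SCR 1. On the values as deposited, 3 silenced libraries lay under the limit of the filter on low values (9.52, 4.72 and 9.80). VIM thus passed that filter through the SCR libraries, where it is high, so its difference in HT29 is a description. ZEB1 was at 35.3 and 69.8 with siPOLR1D2 and at 56.3 and 30.3 with siPOLR1D3, with 2 of 4 silenced libraries below all of SCR (log2 difference -0.68, SE 0.374, adjusted p = 0.524, exact permutation p = 0.143). SNAI2 was at 0 or under 1 and L1CAM between 0.324 and 9.33 in the silenced libraries, and neither was tested.

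In SW480 all 10 members were tested and 2 were called, KRT19 higher and SNAI2 lower after silencing, where 6.73% of 15019 genes were called (2.44% higher and 4.29% lower). The median log2 difference was 0.156 over the 6 epithelial and -0.548 over the 4 mesenchymal members, beside 0.013 for all genes.

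KRT19 ran from 8068 through a median of 9595 to 14159 in the 6 silenced SW480 libraries, against 5347 through 5510.3 to 9176 in SCR. All 3 siPOLR1D2 libraries and siPOLR1D3 3 lay above every SCR library, and the groups overlapped only through SCR 1, which was far above the other SCR libraries. KRT19 rose 1.63-fold (log2 0.70, SE 0.161, adjusted p = 0.0226, exact permutation p = 0.00649). Settings in which the call was lost include leaving out SCR 4 (adjusted p = 0.0509), leaving out SCR 6 (0.0514) and siPOLR1D3 alone (0.105), and it was kept with siPOLR1D2 alone (log2 0.90, 0.0345) and without SCR 1 (log2 0.82, 0.00555).

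The other epithelial members in SW480 were not called. CDH1 ran from 668 through 1326 to 1835 in the silenced libraries, against 572 through 1116 to 1918 in SCR, and the groups overlapped throughout (log2 0.16, SE 0.294, adjusted p = 0.781). The siRNAs differed in sign for CDH1, with -0.29 for siPOLR1D2 alone (adjusted p = 0.667) and 0.62 for siPOLR1D3 alone (0.223), and without SCR 2 it was -0.01. CLDN4 ran from 55.1 through 74.7 to 165 after silencing, against 90.9 through 124 to 209 in SCR. Its 3 siPOLR1D3 libraries (55.1, 62.2 and 62.7) and siPOLR1D2 3 (86.8) lay below all of SCR, and siPOLR1D2 1 and 2 (121 and 165) among it. The log2 difference of CLDN4 was -0.59 (SE 0.310, adjusted p = 0.277), with -0.08 for siPOLR1D2 alone and -1.10 for siPOLR1D3 alone (adjusted p = 0.0552, the lowest over the settings tried, the highest being 0.921). KRT8, KRT18 and EPCAM had log2 differences of 0.17, 0.04 and 0.15 with adjusted p-values of 0.570, 0.889 and 0.680, and their silenced libraries lay within the range of SCR.

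SNAI2 ran from 64.5 through 77.2 to 137 in the silenced SW480 libraries, against 109 through 149.99 to 257 in SCR. All of them but siPOLR1D2 3 lay below every SCR library. SNAI2 fell by 0.90 on the log2 scale (SE 0.242, fold 1.87, adjusted p = 0.0407, exact permutation p = 0.00866). The adjusted p was between 0.0244 and 0.0863 when 1 library was left out, and the call was lost without SCR 2 (0.0683), SCR 3 (0.0859), SCR 5 (0.0587), SCR 6 (0.0819), siPOLR1D2 1 (0.0664) or 2 (0.0675), or siPOLR1D3 1 (0.0745), 2 (0.0715) or 3 (0.0863). The log2 difference was -0.78 with siPOLR1D2 alone (adjusted p = 0.198) and -1.03 with siPOLR1D3 alone (0.0521).

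VIM ran from 6475 through 12411 to 19402 in the silenced SW480 libraries, against 14196 through 16148 to 46609 in SCR. The 3 siPOLR1D3 libraries and siPOLR1D2 3 lay below every SCR library, and siPOLR1D2 1 and 2 among them. The log2 difference was -0.81 (SE 0.342, adjusted p = 0.174, exact permutation p = 0.0736). ZEB1 ran from 709 through 1408 to 2344 after silencing, against 1049 through 1684 to 2894, with siPOLR1D2 3 below all of SCR (log2 -0.29, SE 0.309, adjusted p = 0.624). L1CAM ran from 972 through 1076 to 1211, against 895 through 1324 to 1938, with 5 of 6 SCR libraries above every silenced one and SCR 2 below them all (log2 -0.29, SE 0.142, adjusted p = 0.244, exact permutation p = 0.0714).

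**Figure D4:**
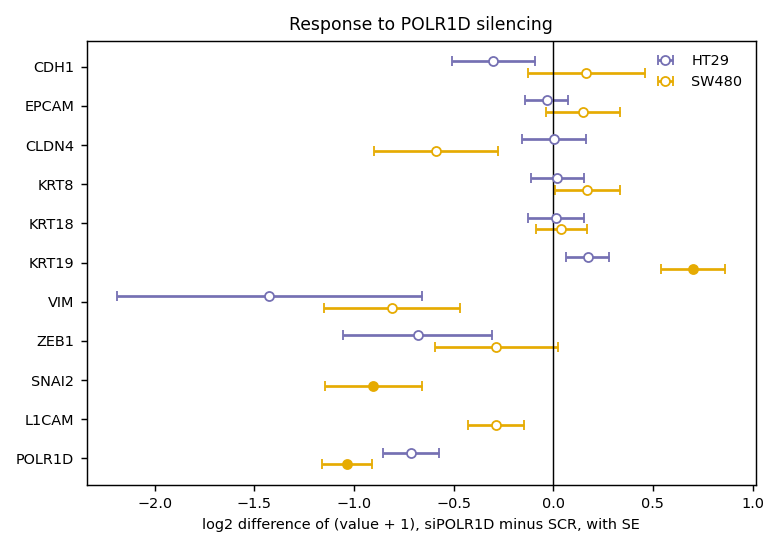
Log2 difference of the value plus 1 between silenced and SCR libraries in HT29 (purple) and SW480 (yellow) with its SE, filled where the adjusted p is under 0.05; SNAI2 and L1CAM were not tested in HT29. Among the members, KRT19 (0.70) and SNAI2 (-0.90) in SW480 are filled.

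The libraries that stood apart in SW480 also stood apart in the members. Within SCR, libraries 2 and 3 had the lowest KRT8 (43992 and 38981), KRT18 and EPCAM and the highest VIM (37358 and 46609) and ZEB1. SCR 1 had the highest KRT8, KRT18, KRT19, EPCAM and L1CAM of the 6 and VIM at 15355, close to SCR 4 to 6. Among the silenced libraries, siPOLR1D2 1 and 2 had the highest VIM, ZEB1 and CLDN4, and siPOLR1D2 3 the lowest VIM (6475) and ZEB1 (709) and the highest KRT8, KRT18, KRT19 and EPCAM.

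To look at each side of this division, SCR 1 to 3 and siPOLR1D2 1 and 2 were taken as the first side. The remaining 7 libraries were the second side. SCR 1 lay between the others on the main axis, at 14.1, so its place on the first side is a choice. The direction of KRT19 and SNAI2 was the same on each side. KRT19 had means of 7022 in SCR 1 to 3 and 10159 in siPOLR1D2 1 and 2 (log2 0.56, adjusted p = 0.49), and of 5456 in SCR 4 to 6 and 10164 in the other 4 silenced libraries (log2 0.86, adjusted p = 0.0111). SNAI2 had means of 149 and 69.8 on the first side (log2 -1.06, adjusted p = 0.354) and of 168 and 90.6 on the second (log2 -0.85, adjusted p = 0.117). VIM had log2 differences of -0.72 (adjusted p = 0.624) and -0.60 (0.0735), CLDN4 of -0.30 (0.746) and -0.51 (0.153), and ZEB1 of 0.21 (0.893) and -0.43 (0.233). The sign of ZEB1 and the size of VIM on the first side depend on SCR 1. Its ZEB1 (1049) lay below siPOLR1D2 1 and 2 (2344 and 2263), and SCR 2 and 3 (2894 and 2604) lay above them. VIM was at 15355 in SCR 1, at 17087 and 19402 in siPOLR1D2 1 and 2, and at 37358 and 46609 in SCR 2 and 3. All siPOLR1D3 libraries lie on the second side, so siRNA and side cannot be told apart in full.

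**Figure D5:**
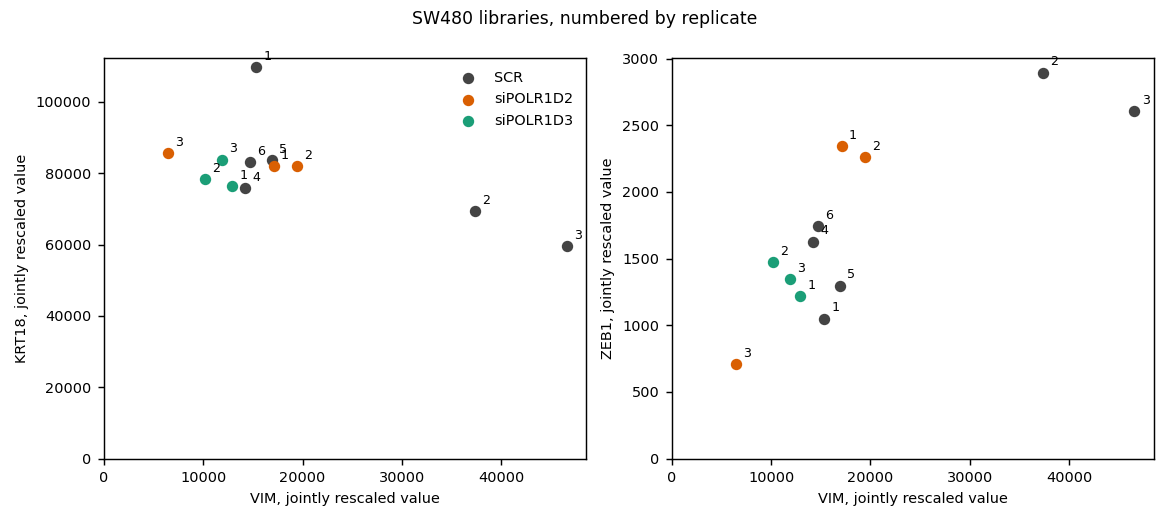
Value of KRT18 (left) and ZEB1 (right) against VIM in the 12 SW480 libraries on the common scale, 1 dot a library, coloured by siRNA and numbered by replicate. SCR 2 and 3 have the highest VIM (37358 and 46609) with the lowest KRT18 of the 12, and siPOLR1D2 3 has the lowest VIM (6475) and ZEB1 (709).

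The comparisons of each siRNA alone share the same SCR libraries, so the siRNAs were also compared with each other in SW480. None of the 10 members was called different between siPOLR1D3 and siPOLR1D2 by limma, where 3.32% of 15019 genes were. CDH1 and CLDN4 had an unadjusted p under 0.05, as had 3272 of the 15019 genes. CDH1 was at 1222, 668 and 818 with siPOLR1D2 and at 1429, 1788 and 1835 with siPOLR1D3. No library of one overlapped the other (log2 0.91, SE 0.347, adjusted p = 0.154, exact permutation p = 0.1, the smallest that 3 against 3 can give). CLDN4 was lower in all 3 siPOLR1D3 libraries than in any siPOLR1D2 library (log2 -1.02, SE 0.348, adjusted p = 0.117, exact permutation p = 0.1). KRT19 (log2 -0.39, adjusted p = 0.286) and SNAI2 (log2 -0.24, adjusted p = 0.706) were closer. Around the members, the list genes CD44 (log2 1.35), CDX2 (1.72) and COL6A2 (3.01) were called higher with siPOLR1D3 and SPINT1 (-0.74) and LUM (-1.32) lower.

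Whether the lines responded differently was tested directly over all 20 libraries. No member's response was called different by limma, where 0.0310% of 16145 genes were. KRT19 and SNAI2 had an unadjusted p under 0.05, as had 1345 of the 16145 genes. The response of KRT19 was larger in SW480 than in HT29 by 0.54 on the log2 scale (SE 0.218, adjusted p = 0.491). That of SNAI2 differed by -1.38 (SE 0.44, adjusted p = 0.34), with HT29 listed at 0 or under 1 throughout, so that the size depends on the pseudocount. The response of KRT19 is therefore not shown to differ between the lines, and for SNAI2 HT29 has no measured response to compare. The 5 genes called, named after their values were seen, were GCOM1 (-1.42), CAMK2N1 (-2.48), SAR1B (1.06), CTSH (1.56) and LSM14A (0.90), and no list gene was among them.

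Of 132 list genes tested for silencing in SW480, 14 were called, where 6.73% of all genes were, a share that also applies to the counts by list below. In HT29 limma called none of them, as of all genes there (0%, with 1422 at an unadjusted p under 0.05). Other keratins rose beside KRT19, with KRT5 going from a mean of 53417 to 100055 (log2 0.92, adjusted p = 0.00657) and KRT20 from 4.69 to 37.0 (log2 2.75, adjusted p = 0.00698), 2 of 9 tested. KRT20 passed the filter through the silenced libraries, where it is high, so its call is a description. Among 15 tight junction genes, TJP1 (-0.63) and PARD6B (-0.89) were some of those that fell, and MARVELD3 (1.25) rose. Of 9 genes of the L1 family and its partners, CNTN1 fell from 986 to 366 (log2 -1.38, adjusted p = 0.00526). In TGF-beta signalling, TGFBR2 fell (-1.16) and TGFBR1 (0.47) and SMAD2 (0.52) rose, 3 of 15. ITGB1 (-0.54) and AXL (-0.97) fell among 25 mesenchymal genes, CTNNA1 (-0.37) among 15 of adherens junctions, and ESRP1 (-0.75) among 14 epithelial factors. Limma called 0 of 13 other epithelial surface genes and 0 of 6 transcription factors of the transition. In each of these last lists 1 gene had an unadjusted p under 0.05, as had 3478 of all 15019 genes.

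Genes whose levels moved most like those of 4 members were sought over all 20 libraries after the mean of each line was removed. For KRT18 these were KRT8, its filament partner, with a Pearson correlation of 0.834 among 12723 genes, then UQCR10 (0.804) and COPS6 (0.797). For CDH1 they were LPIN2 (0.836), STT3B (0.801) and C19orf33 (0.787), and for VIM they were WDR19 (0.838), VPS41 (0.83) and HLCS (0.808). Within HT29 and SW480 alone, KRT8 had 0.49 and 0.929 with KRT18, LPIN2 0.908 and 0.853 with CDH1, and WDR19 0.871 and 0.848 with VIM. For L1CAM they were OCEL1 (0.820; 0.904 in HT29 and 0.608 in SW480), ZNF514 (0.817; 0.928 and 0.346) and PHYH (0.787; 0.869 and 0.618), so values under 10 in HT29 carry much of this likeness. The libraries share their scaling and the divisions described above, and these correlations are descriptions.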

How the data were processed

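The authors made captured RNA-seq libraries (TruSeq RNA Exome, Illumina NextSeq 550, paired-end reads). Per the submitters' processing notes they used FastQC 0.11.5, kallisto 0.44.0 and DESeq2 1.24.0 with build hg38; the kallisto index is not given. The deposited values are a signal: counts per gene divided by a size factor per library, not whole numbers. Each library sums to between 17619830 and 22958216, the reads behind a gene are unknown, and no counting interval can be given.

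Lines sharing a name were summed. Levels used joint median-of-ratios factors over 14055 genes above 0 in all 20 libraries. Each comparison was fitted with limma 3.58.1 in R 4.3.3 on log2 of the value plus 1 (mean-variance trend, empirical Bayes, Benjamini-Hochberg over all genes tested), on deposited values within a line and on jointly scaled values otherwise. Genes needed a value of at least 10 in 4 libraries (6 for SW480 silencing and its siRNAs). Exact 2-sided permutation tests used SciPy 1.17.1. Settings tried were other scalings, filters, pseudocounts, trend and Bayes options, each siRNA alone, both lines in 1 fit, the sides of SW480 as a term or alone, replicate number as a block, the largest line in place of the sum, and each library left out.

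Named list genes are taken from the 2 most different in each direction per list between lines, and up to 12 per line by adjusted p for silencing; AXL, ESRP1 and the genes called between siRNAs or between responses were named after their values were seen. Members and lists were chosen with earlier results of these data known. Likeness took the 3 genes with the highest correlation for CDH1, KRT18, VIM and L1CAM.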

Additional observations from a re-analysis of the deposited data

Results flagged for a closer look

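A library was set apart when its gap to the next one was a large share of its group's range. Of 43 groups of libraries, over the members and POLR1D, 4 had 1 such library. Chance alone sets apart about 1 in 20 groups only if they are independent and normally spread. These groups share libraries and scaling, so that rate need not hold for them. KRT19 was at 9176 in SW480 SCR 1, above the other 5 SCR libraries. SNAI2 was at 137 in SW480 siPOLR1D2 3, above the other 5 silenced libraries. VIM was at 63.9 in HT29 siPOLR1D2 2, above the other 3 silenced libraries, and CLDN4 was at 493 in HT29 SCR 1, above the other 3 SCR libraries. Why these libraries differ was not tested.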

How the results depend on the processing

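Of 1363 values of the 10 members and POLR1D under other settings, 1287 kept their sign and their call or lack of one, 22 lost a call, 9 gained one and 45 turned sign. Sizes could move widely within a kept sign, as for CLDN4 in SW480 silencing (-1.10 to -0.08) and VIM in HT29 silencing (-2.43 to -0.61). The line differences of CDH1, KRT8, CLDN4, VIM and ZEB1 were called in all 24 settings; those of SNAI2 and L1CAM were too, but these genes passed the filter through SW480 alone, which fixed that they differ. EPCAM and KRT19 gained a call between the lines in 4 of 24, with all 20 libraries in 1 fit (adjusted p 0.0257 and 0.0445), upper-quartile scaling (0.0240 and 0.0319), SW480 SCR 4 to 6 alone (0.0228 and 0.00278) and without SW480 SCR 1 (0.00557 and 0.00248). The call of KRT19 in SW480 silencing was kept in 24 of 29 settings. It was lost on the first side alone, with siPOLR1D3 alone, without SCR 4 (0.0509) and without SCR 6 (0.0514). It was also lost with replicate number as a block (log2 0.52, adjusted p = 0.193). For silencing, the block takes out of the contrast the SCR libraries whose number no silenced library has. These are SCR 4 to 6 in SW480 and SCR 3 and 4 in HT29. The controls compared thus change with the block, and the effect of blocking alone was not tested. Over all 29 the adjusted p of KRT19 ran from 0.0049 to 0.49 and that of SNAI2 from 0.0207 to 0.354. The call of SNAI2 was lost in 15 of 29, among them no filter (0.0644), the block (0.170) and 9 of the 12 left-out libraries. POLR1D in SW480 lost its call on the first side alone (0.261) and with the block (0.0865), and in HT29 it gained one with the block (log2 -0.80, adjusted p = 0.0404). In HT29 the block left SCR 1 and 2 as the controls compared, and SCR 1 was the highest POLR1D library.

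Sign turned in small differences. For KRT18 the line difference was 0.1052 as deposited and 0.1993 by quantile normalisation. KRT18 in HT29 silencing was -0.06236 with the block and -0.04723 with siPOLR1D3 alone, and in SW480 -0.008101 with siPOLR1D3 alone; its difference of response was -0.1312 and its siRNA difference 0.01574 by quantile normalisation. CDH1 in SW480 was -0.2895 with siPOLR1D2 alone. CLDN4 in HT29 was -0.1234 with the block and -0.03731 with siPOLR1D2 alone. EPCAM in HT29 was 0.04659 by quantile normalisation and 0.0176 with siPOLR1D2 alone. KRT8 in HT29 was -0.0533 with siPOLR1D3 alone, and between siRNAs 0.02006 by upper-quartile scaling. L1CAM between siRNAs was 0.02416 by quantile normalisation. ZEB1 in SW480 was 0.2057 on the first side alone, a sign that depends on counting SCR 1 (1049) on that side, as given above.

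With 1 library left out, signs turned within these ranges: in SW480 silencing CDH1 -0.01175 to 0.3331, KRT18 -0.03616 to 0.1325; in HT29 silencing CLDN4 -0.06844 to 0.1324, EPCAM -0.09258 to 0.02705, KRT18 -0.07588 to 0.08054, KRT8 -0.0665 to 0.05907; between siRNAs EPCAM -0.3191 to 0.1285, KRT8 -0.1166 to 0.06943, L1CAM -0.1285 to 0.03426, POLR1D -0.2183 to 0.07219, SNAI2 -0.4594 to 0.07457, VIM -0.6792 to 0.1141, ZEB1 -0.8112 to 0.05637; in the difference of response KRT18 -0.04506 to 0.131.

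In HT29 silencing 4 genes were called with both lines in 1 fit, 735 with the block, and 0 to 1 with 1 library left out (1 without SCR 3 or siPOLR1D2 1). The block also took SCR 3 and 4 out of the HT29 contrast, since no silenced library has their numbers. In SW480 it likewise took out the SCR libraries without a silenced library of the same number. The effect of blocking alone on these silencing counts was not tested. In SW480 silencing 0 were called on the first side alone, 666 with no filter, 0 with the block, 1939 on the second side alone, 1993 with side as a term, 582 with siPOLR1D2 alone and 540 (without siPOLR1D3 3) to 1281 (without SCR 1) with 1 left out. Between siRNAs 289 were called with no filter, 293 with no trend, 39 with the block and 39 (without siPOLR1D3 2) to 779 (without siPOLR1D2 3) with 1 left out. For the difference of response 2 were called with no trend, 17 with pseudocount 0.1, 12 by quantile normalisation, 0 with the block and 1 (without HT29 siPOLR1D3 1) to 23 (without HT29 SCR 3) with 1 left out. The cause of these differences was not tested.

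Replicate numbers were not taken as pairs. Residuals of libraries with the same number correlated at -0.03 on average in HT29 and -0.085 in SW480, against 0.01 and 0.029 for different numbers. In SW480 they ran from -0.413 to 0.573 for the same number and from -0.6 to 0.6 for different numbers. Residuals were taken from the means of SCR and of silenced libraries, which ties these averages together. Pairing by anything but equal numbers was not tested.

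The values are already normalised, so depth cannot be known per gene, and genes near 0, such as SNAI2 and L1CAM in HT29, have no usable fold. The count of 0 in HT29 silencing is no evidence of no effect, and its cause was not tested. The lines differ in medium, origin and size of group. The division of the SW480 libraries lies along their main axis of variation, and its cause was not tested. RNA levels say nothing of protein, of cell shape or of where junction proteins lie, and the time point is 72 h alone.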
